A study of Homo sapiens with 4 samples.

Results

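The 40 genes described here encode the Fanconi anemia pathway and the homologous recombination machinery, with the kinases and chromatin factors that signal DNA breaks to them. They were chosen by name, by a rule that uses no measured value, as rows of the expression table whose Entrez identifier maps to these symbols. All 40 were found among the 16658 genes of the table, and 39 passed the filter of an FPKM of at least 1 in at least 2 libraries, which left 10726 genes to test. FPKM is the fragment count of a gene divided by its transcript length and by the library's mapped fragments, so levels can be compared between genes on this scale. The filter was passed without regard to group by most members, since 35 of the 40 had an FPKM of at least 1 in all 4 libraries.

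RNA was sequenced from cells labelled HepG2, a line established from a human liver tumor. There were 2 WT libraries and 2 libraries of ZCCHC4 KO1, a line of these cells in which ZCCHC4 was disrupted with CRISPR/Cas9. All 4 libraries came from untreated cells grown in DMEM with FBS, so no DNA-damaging drug was present in either group. ZCCHC4 is an RNA m6A methyltransferase of the 28S rRNA, and the study asked what its loss does to the transcriptome of cells whose response to DNA-damaging agents it examined elsewhere. ZCCHC4 KO1 is 1 knockout line, and nothing in the labels says that the 2 libraries of a group came from separate cultures, so p-values measure the spread between these libraries, which may be technical.

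Interstrand crosslinks, which platinum drugs make among other adducts, stall replication forks and are recognized by the Fanconi anemia core complex, which ubiquitinates the FANCD2 and FANCI pair. The crosslink is then unhooked, and the break that results is repaired by homologous recombination: ends are resected, BRCA2 and its partners load the recombinase onto the single strand, and the strand invades the sister chromatid. Many of these genes are transcribed mainly in proliferating cells, under E2F factors that act on G1/S promoters.

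The knockout guide, printed with its PAM in capitals because it fixes what was disrupted, matched GRCh38 exactly at 1 site, chr4:25312824-25312843 on the plus strand, in exon 1 of 13 of ZCCHC4.

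ZCCHC4 guide: gaatgggtttgaagccgtggAGG

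ZCCHC4 itself had an FPKM of 7.22 and 5.44 in WT against 1.08 and 2.29 in ZCCHC4 KO1, groups that did not overlap. The log2 fold change on log2(FPKM + 1) was -1.48 (SE 0.29, n = 2 and 2) with an adjusted p of 0.0448 (limma, Benjamini-Hochberg over all tested genes). Its adjusted p was 0.0514 without ZCCHC4 KO1 replicate 1, and from 0.000458 to 0.115 over the other settings tried (pseudocount, filter, scaling, block, GC trend and left-out libraries).

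The cell line label was checked against markers. Of 20 hepatocyte markers, 13 had a row, and CPS1 alone was at 1 or more in the WT libraries. AFP, a defining marker of this line, was at 0 and 0.05 in WT and at 0 in both ZCCHC4 KO1 libraries, and HNF4A did not exceed 0.08. ALB, APOA1, APOB and TTR were not analysed here. Of 8 other epithelial markers, 4 were at 1 or more in both WT libraries. The epithelial keratin KRT7 stood at an FPKM of 2025.95 and 2359.14 in WT. KRT19 was at 0.11 and 0.1 there, EPCAM at 0 and 0.03, CDH1 at 0.11 and 0.19, and SOX9 at 0.05 and 0.1. The level of AFP goes against the HepG2 label, which is used here only as the given name. The identity of the cells was not tested. The summed FPKM of the hepatocyte list was 276.06 and 245.72 in WT against 128.73 and 179.93 in ZCCHC4 KO1, that of the other epithelial list 5261.86 and 6115.80 against 9286.76 and 7100.64, and that of the mesenchymal list 562.85 and 579.00 against 399.54 and 424.48. CPS1 made up nearly all of the hepatocyte sum, at 275.24 and 244.92 in WT against 127.67 and 178.84 in ZCCHC4 KO1. VIM made up most of the mesenchymal sum, at 536.2 and 553.28 against 388.61 and 413.15. KRT7, KRT8 and KRT18 made up nearly all of the other epithelial sum. The sums thus differed between groups mainly through few genes, and their part in the members' values was not tested.

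What the members shared beyond the rule was looked for in their promoters, 250 bases before to 50 after each start in the RefSeq table of GRCh38.p14. A window was given for 37 of the 40, with none for FANCI, NBN and RAD54B. An E2F-like motif (TTCCCGC or TTGGCGC, on either strand, the second of which can share bases with a CCAAT box) was present in 17 of these members, or 45.9%, against 11% of all 27305 genes with a window and 18.8% of the 8827 tested ones. A CCAAT box, the letters bound by NF-Y, was present in 18 members, or 48.6%, against 39.7% and 43.6%. A CHR-like motif (TTTGAA or TTCGAA), known from G2/M promoters, was present in 4, or 10.8%, against 19.5% and 15.1%. The stretches below show the E2F-like match, in capitals with 10 bases on either side and on the strand of the gene, in 8 members from 6 of the role groups used below, because it was the motif whose share differed most between the members and the other promoters. In FANCD2 and XRCC3 the match overlaps the annotated start.

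XRCC3, chr14:103715437-103715463, minus strand: gagcaggacgGCGGGAAgaggagtgcg
BRCA1, chr17:43125395-43125421, minus strand: acggaaaagcGCGGGAAttacagataa
FANCD2, chr3:10026425-10026451, plus strand: gtcgggcctgGCGGGAAagtcgaaaac
FANCG, chr9:35080010-35080036, minus strand: ctcggtggaaGCGGGAAcccaggagga
RAD51D, chr17:35119802-35119828, minus strand: ggctctgggcGCGGGAAtcccggcgga
RAD54L, chr1:46247629-46247655, plus strand: cgcagcactaTTCCCGCctcttccttg
BLM, chr15:90717262-90717288, plus strand: gcctgaggggGCGGGAAcagatgtccg
EME1, chr17:50373139-50373165, plus strand: cgggtcctcaGCGCCAAcaccaccgac

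BLM, the RecQ helicase that dissolves joint molecules, held 3 such matches in its window, and the window of CHEK2 held none and 3 CCAAT boxes. The median log2 fold change was -0.02 for the 17 tested members with an E2F-like match and -0.01 for the 19 without one. A match describes letters and says nothing of binding in these cells.

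No member passed an adjusted p of 0.05. Over all tested genes 1.50% passed it as higher in ZCCHC4 KO1 and 4.48% as lower, 161 and 480 genes, a split that moved to 466 and 721 after quantile normalization and to 1280 and 1444 after removal of the trend on GC content. None passed the thresholds the study states for changed genes, an FDR under 0.001 and a fold change of at least 2. In this limma fit 0.0186% of all genes passed them as higher and 0.0559% as lower. The study reported many more genes at those thresholds, from a test that its text does not name. The counts of the study and of this fit are therefore not comparable. At an unadjusted p under 0.05, 1 member was higher, XRCC3, and 1 was lower, CHEK2, or 2.56% of the 39 in each direction, where 8.96% of all tested genes were higher and 13.9% lower. Both shares lie under the background. The median standard error was larger for the members, 0.232 against 0.191 over all tested genes, and its part in these shares was not tested. The median absolute log2 fold change was 0.215 for the members and 0.249 over all tested genes. In bulk RNA, fewer cells that express a gene and less RNA per cell cannot be told apart. The median log2 fold change of the members was -0.02, beside -0.03 over all tested genes, with 15 members above 0 and 24 below, and 5018 and 5708 of all tested genes. That balance turned with the scaling. It was 20 above and 19 below after median-ratio scaling, 22 and 17 after quantile normalization, and 23 and 16 after removal of the trend on GC content, where all tested genes stood at 5912 and 4814.

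In 3 members, FANCA, XRCC3 and SLX4, both ZCCHC4 KO1 values lay above both WT values, 7.69% of the tested members against 23.1% of all tested genes. In 9, FANCC, FANCF, FANCG, RAD51B, RAD51C, RAD54L, CHEK2, MDC1 and RNF8, both lay below, 23.1% against 28.5%. After removal of the trend on GC content these were 11 members above (28.2%, against 36.1% of all tested genes) and 7 below (17.9% against 29.7%). FANCM, BRCA1, BARD1, BRIP1, MRE11, RAD50, ATM and ATR joined those above, FANCB joined those below, and RAD51B, RAD51C and RNF8 left them. In 30 of the 39, or 76.9%, the larger of the differences between replicates within a group exceeded the difference between the group means on log2(FPKM + 1), which held for 57.4% of all tested genes. An exact permutation test of 2 libraries against 2 cannot go below a two-sided p of 0.333.

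**Figure D1:**
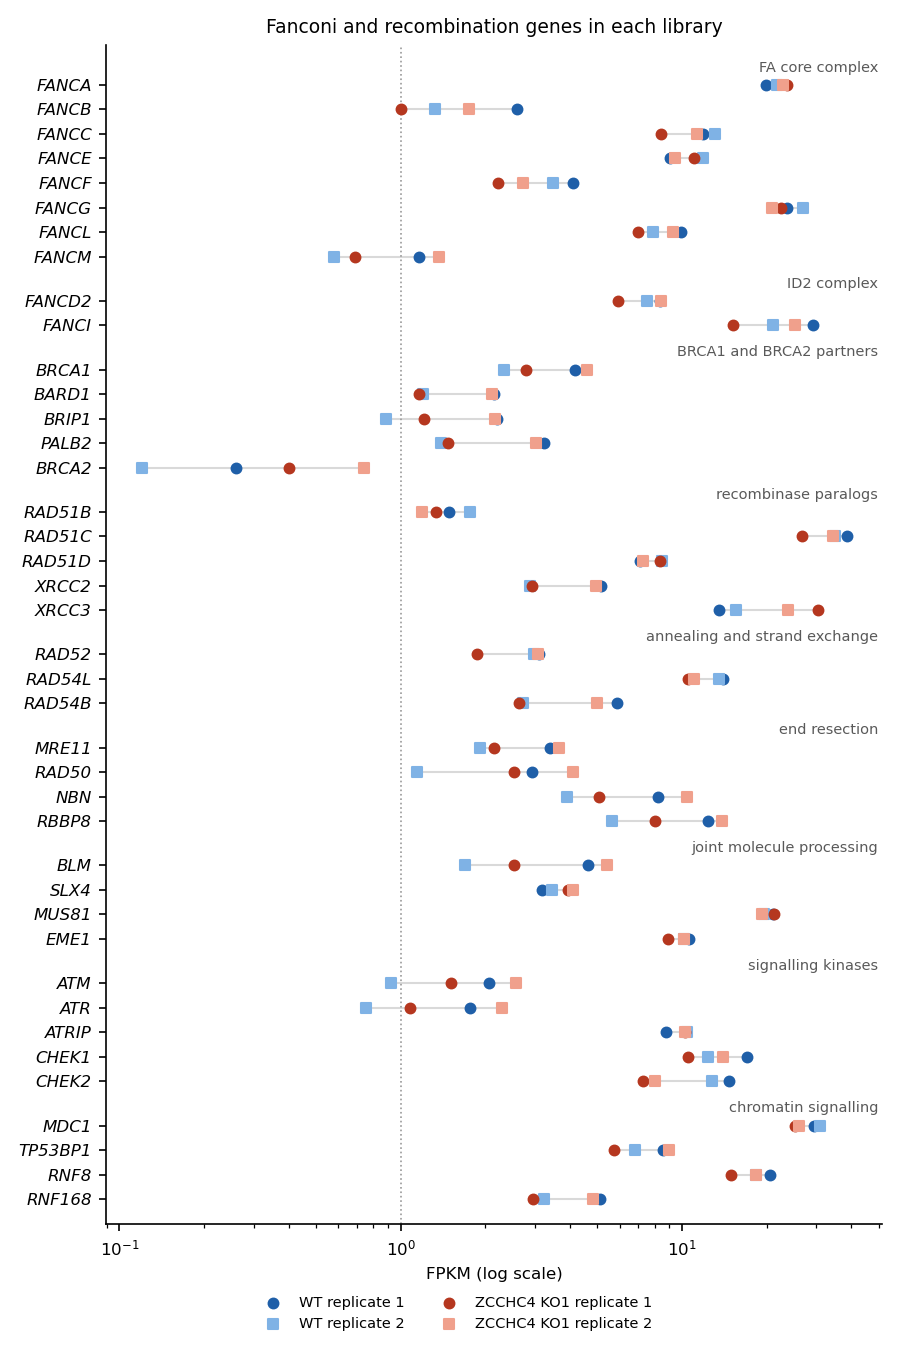
FPKM on a log axis of the 40 members in each of the 4 libraries, grouped by role; each point is 1 library, the grey line spans the 4 values and the dotted line marks an FPKM of 1. The WT and ZCCHC4 KO1 points interleave for most members, stand apart for XRCC3 (13.55 and 15.56 against 30.43 and 23.83) and CHEK2 (14.68 and 12.76 against 7.25 and 8.04), and lie under 1 in every library for BRCA2.

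The Fanconi core complex is the ubiquitin ligase of the pathway, with FANCL as its catalytic subunit and FANCM as the DNA-binding translocase that anchors it. Its 8 members were all tested, 2 of them with a log2 fold change above 0 and 6 below, with a median of -0.16. The most abundant were FANCG, at an FPKM of 23.59 and 26.98 in WT against 22.53 and 20.93 in ZCCHC4 KO1, and FANCA, at 19.86 and 21.78 in WT against 23.67 and 22.95 in ZCCHC4 KO1. FANCG and FANCA thus lay on opposite sides of WT by a small step. FANCA shares 1328 bases with the opposite-strand gene ZNF276 between their main transcripts, and ZNF276 read 5.30 and 5.34 in WT against 7.95 and 8.06 in ZCCHC4 KO1; where counting does not use strand, reads of the overlap cannot be assigned, and the counting here is not stated.

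FANCC read 11.9 and 13.11 in WT against 8.43 and 11.31 in ZCCHC4 KO1, and FANCF, the adaptor of the complex, 4.10 and 3.48 against 2.22 and 2.72. In both, the groups did not overlap, and neither passed an unadjusted p of 0.05. FANCE read 9.08 and 11.91 against 11.07 and 9.46, FANCL 9.93 and 7.88 against 7 and 9.27, and FANCB, the X-linked member, 2.60 and 1.32 against 1 and 1.75. FANCM was the lowest, at 1.16 and 0.58 in WT against 0.69 and 1.37 in ZCCHC4 KO1, with overlapping groups.

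FANCD2 and FANCI form the clamp that the core complex ubiquitinates on DNA. FANCI read 29.18 and 21.12 in WT against 15.17 and 25.14 in ZCCHC4 KO1, and FANCD2 8.35 and 7.5 against 5.94 and 8.45. For both, the lowest value was that of ZCCHC4 KO1 replicate 1, while ZCCHC4 KO1 replicate 2 lay within or above the WT values.

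BRCA1 and BARD1 form a ubiquitin ligase that favors resection, BRIP1 is the helicase FANCJ, and PALB2 joins BRCA1 to BRCA2, the loader of the recombinase. All of them were low. BRCA1 read 4.18 and 2.32 in WT against 2.79 and 4.61 in ZCCHC4 KO1, BARD1 2.14 and 1.20 against 1.16 and 2.11, BRIP1 2.2 and 0.89 against 1.21 and 2.16, and PALB2 3.22 and 1.39 against 1.47 and 3.03. In these 4 genes WT replicate 1 resembled ZCCHC4 KO1 replicate 2, and WT replicate 2 was nearer to ZCCHC4 KO1 replicate 1, so the members of a group lay farther apart than the groups. BRCA2 was the 1 member that failed the filter, at an FPKM of 0.26 and 0.12 in WT against 0.40 and 0.74 in ZCCHC4 KO1. A ratio at such levels rests on few fragments, and BRCA2 was tested only in the fit without a filter.

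The recombinase paralogs act in 2 complexes that remodel the recombinase filament, RAD51B, RAD51C, RAD51D and XRCC2 in one and RAD51C with XRCC3 in the other. XRCC3 (Entrez 7517, chr14:103697617-103715451) had the highest log2 fold change of all members. It read 13.55 and 15.56 in WT against 30.43 and 23.83 in ZCCHC4 KO1, a ratio of mean FPKM of 1.86. Both ZCCHC4 KO1 values lay above both WT values. The log2 fold change was 0.85 (SE 0.18) with an unadjusted p of 0.00405 and an adjusted p of 0.0586, just outside the threshold. XRCC3 was the gene of rank 187 from the highest log2 fold change among the 10726 tested. Its log2 fold change ran from 0.678 to 1.018 over the settings listed for ZCCHC4. In those that keep all 4 libraries its adjusted p spanned 0.00371 to 0.131. Exons annotated for any isoform of KLC1 on the opposite strand cover 76.7% of the exon bases of XRCC3, although the main transcripts share 0 bases. KLC1 read 32.84 and 32.8 in WT against 29.75 and 33.34 in ZCCHC4 KO1, with overlapping groups.

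The partner of XRCC3 in its complex, RAD51C, had the highest group means of all 40 members, at 38.53 and 35.11 in WT against 26.68 and 34.42 in ZCCHC4 KO1. RAD51C and XRCC3 thus lay on opposite sides of their WT values. RAD51D read 7.07 and 8.51 against 8.35 and 7.27, XRCC2 5.14 and 2.89 against 2.93 and 4.93, and RAD51B 1.49 and 1.76 against 1.33 and 1.19. The median log2 fold change over the 5 paralogs was -0.02.

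RAD52 anneals complementary strands, and RAD54L and RAD54B are motor proteins that drive strand exchange. RAD54L read 13.96 and 13.54 in WT against 10.48 and 11.03 in ZCCHC4 KO1, with the replicates of each group close together and the groups apart, and did not pass an unadjusted p of 0.05. It shares 566 bases with the opposite-strand gene LRRC41 between main transcripts, which read 39.89 and 46.57 against 35.19 and 29.86. RAD52 read 3.10 and 2.98 against 1.87 and 3.07, and RAD54B 5.87 and 2.72 against 2.64 and 4.98.

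MRE11, RAD50 and NBN form the complex that first binds a break, and RBBP8, also known as CtIP, starts its resection. All 4 had a log2 fold change above 0, with a median of 0.30, and none passed the test. The direction held for RAD50 alone in every fit that left out 1 library, since MRE11, NBN and RBBP8 turned below 0 when replicate 2 of either group was left out. NBN read 8.20 and 3.91 in WT against 5.05 and 10.38 in ZCCHC4 KO1, RBBP8 12.35 and 5.63 against 8.05 and 13.85, and MRE11 3.39 and 1.92 against 2.15 and 3.65. In each the highest value was that of ZCCHC4 KO1 replicate 2 and the lowest that of WT replicate 2. RAD50, named here after its values had been seen, read 2.92 and 1.14 in WT against 2.52 and 4.09 in ZCCHC4 KO1, with a log2 fold change of 0.55 (SE 0.35) and an adjusted p of 0.428. A readthrough gene on the same strand shares 7525 bases with RAD50 between main transcripts. That gene was not found by name among the deposited values, so whether reads of RAD50 were counted for it is not known.

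BLM, SLX4, MUS81 and EME1 undo or cut the joint molecules that recombination leaves, BLM as a helicase, SLX4 as a nuclease scaffold, and MUS81 with EME1 as a nuclease. MUS81 was the steadiest of the 4, at 21.07 and 19.51 in WT against 21.31 and 19.25 in ZCCHC4 KO1, and its partner EME1 read 10.56 and 10.14 against 8.94 and 10.14. SLX4 read 3.18 and 3.45 against 3.92 and 4.09, a small step with no overlap. BLM had the widest spread of all members within WT on the log2 scale, at 4.62 and 1.69 against 2.52 and 5.42.

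ATM and ATR are the apical kinases of the response to breaks and to stalled forks, and CHEK2 and CHEK1 are the effector kinases that each mainly activates. CHEK2 (Entrez 11200, chr22:28687742-28741834) had the lowest log2 fold change of all members. It read 14.68 and 12.76 in WT against 7.25 and 8.04 in ZCCHC4 KO1, a ratio of mean FPKM of 0.557, and the groups did not overlap. The log2 fold change was -0.77 (SE 0.18), with an unadjusted p of 0.00598 and an adjusted p of 0.0717. CHEK2 ranked 739 from the lowest log2 fold change among all tested genes. The log2 fold change ran from -0.860 to -0.603 over the same settings. In those that keep all 4 libraries the adjusted p spanned 0.0126 to 0.36. CHEK2 has 7 named pseudogenes that could draw reads from it, so its level is uncertain (FANCD2, BRCA1, RAD52, MRE11 and RBBP8 have 1 each), and HSCB, which overlaps its exons from the opposite strand, read 9.42 and 9.54 in WT against 11.21 and 10.17 in ZCCHC4 KO1.

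CHEK1 read 17.06 and 12.41 in WT against 10.50 and 13.97 in ZCCHC4 KO1, with overlapping groups, a log2 fold change of -0.25 (SE 0.23) and an adjusted p of 0.598. ATM read 2.06 and 0.92 in WT against 1.51 and 2.56 in ZCCHC4 KO1, with a log2 fold change of 0.30 (SE 0.30) and an adjusted p of 0.619. ATR read 1.77 and 0.75 against 1.08 and 2.29, with a log2 fold change of 0.25 (SE 0.32) and an adjusted p of 0.713. The 2 apical kinases were low in all 4 libraries, and the sign of both turned without WT replicate 2, to -0.03 for ATM and -0.08 for ATR; without ZCCHC4 KO1 replicate 2 that of ATR was also -0.08. ATRIP, the partner that brings ATR to single-stranded DNA, read 8.80 and 10.39 in WT and 10.24 in both ZCCHC4 KO1 libraries. ATRIP shares 1096 bases with TREX1 on the same strand between main transcripts, and TREX1 read 11.36 and 11.03 in WT against 4.73 and 3.47 in ZCCHC4 KO1, so the split of reads between them bears on the level of ATRIP.

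MDC1 binds phosphorylated H2AX beside a break, RNF8 and RNF168 then ubiquitinate the chromatin, and TP53BP1 binds there and opposes resection. All 4 had a log2 fold change below 0, with a median of -0.15, and none passed the test. TP53BP1 and RNF168 turned above 0 after quantile normalization, after removal of the trend on GC content, and when replicate 1 of either group was left out, and the median with that trend removed was 0.02. MDC1 read 29.47 and 30.97 in WT against 25.29 and 25.96 in ZCCHC4 KO1, and RNF8 20.48 and 18.40 against 14.97 and 18.32, both without overlap of the groups. RNF168 read 5.10 and 3.24 against 2.96 and 4.83, and TP53BP1 8.57 and 6.78 against 5.73 and 8.96, with the groups overlapping in both. TP53BP1 shares 3067 bases with TUBGCP4 on the opposite strand between main transcripts. Such overlaps with opposite-strand protein-coding genes also exist for FANCL (VRK2, 452 bases), FANCI (POLG, 431 bases) and EME1 (LRRC59, 246 bases). Opposite-strand long noncoding RNA genes share 701 bases with MDC1 (MDC1-AS1), 751 with CHEK1, 443 with BLM and 329 with SLX4, among others. These noncoding genes were not found by name among the deposited values. H2AX, the histone variant these factors read, had an FPKM of 142.13 and 167.04 in WT against 163.96 and 137.34 in ZCCHC4 KO1, and its log2 fold change of -0.04 (SE 0.16, adjusted p = 0.922) turned to 0.04 after median-ratio scaling.

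**Figure D2:**
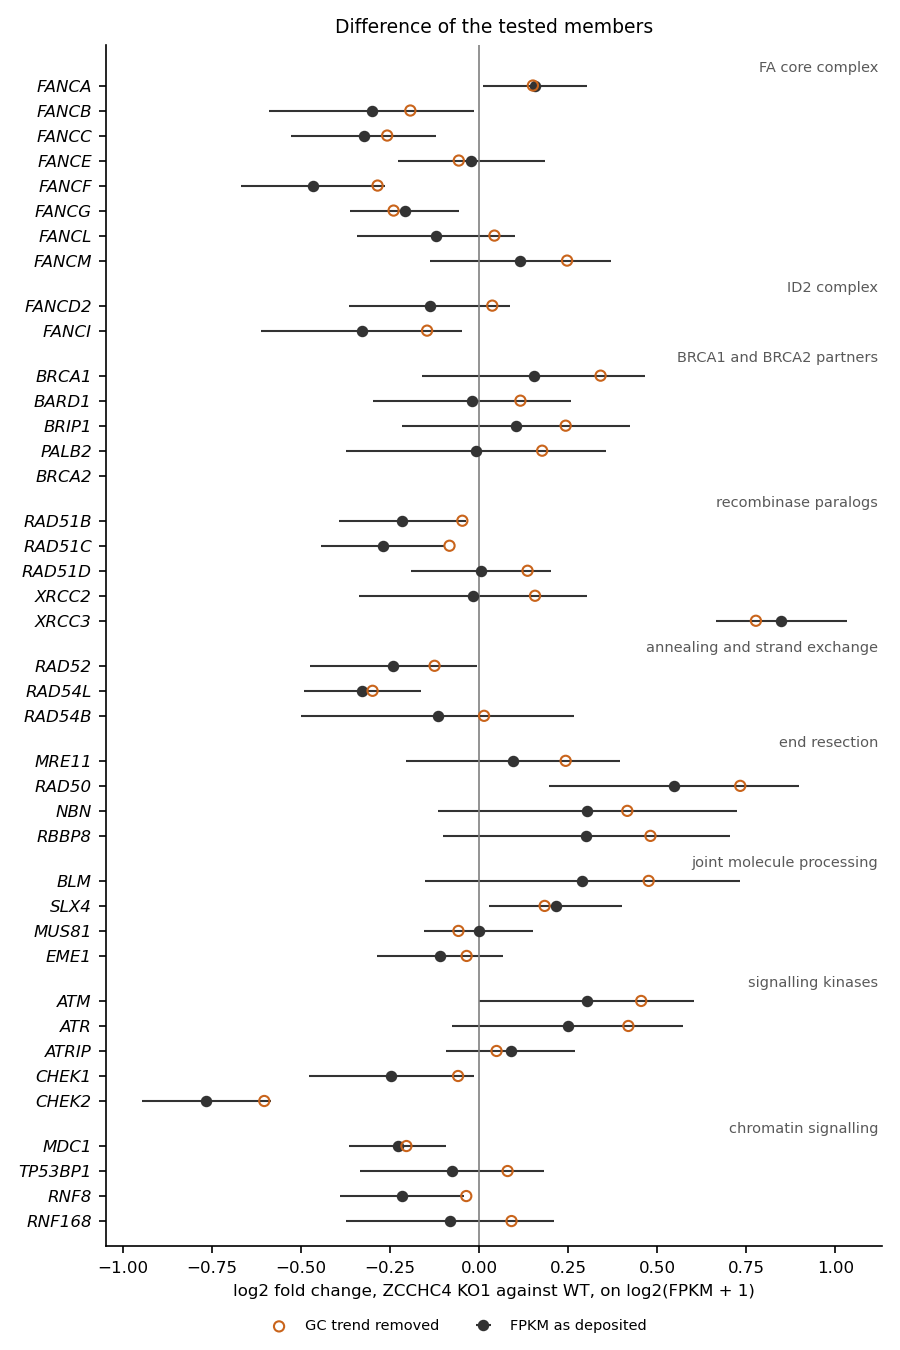
Log2 fold change of ZCCHC4 KO1 against WT on log2(FPKM + 1) for the 39 tested members, with the limma standard error (filled points and bars, FPKM as deposited) and after removal of each library's trend on GC content (open circles); BRCA2 was not tested and has no point. XRCC3 (0.85) and CHEK2 (-0.77) lie farthest from 0, and the open circles of the end resection genes lie to the right of the filled ones.

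Within each group the replicates diverged with transcript GC content, and in opposite directions in the 2 groups. Among the tested members, replicate 2 lay below replicate 1 in WT for 29 of 39 genes and in ZCCHC4 KO1 for 7. Across these 39 genes, which share the libraries and are no independent replicates, the difference of replicate 2 from replicate 1 had a Spearman's rho with GC content of 0.83 in WT and -0.74 in ZCCHC4 KO1, beside 0.73 and -0.78 over the 10540 tested genes with a GC value. The members had a median GC content of 43.7%, under the 48.7% of all tested genes.

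A cut at 42% GC, placed after the values had been seen, divides the members. For the 17 members under it, replicate 2 minus replicate 1 on log2(FPKM + 1) had a median of -0.66 in WT, from -1.06 to -0.13, and of 0.53 in ZCCHC4 KO1, from 0.36 to 0.91. In all 17 the difference thus had opposite signs in the 2 groups. For the 22 at or above it, the medians were -0.04 and 0.10. The median standard error was 0.31 under the cut and 0.19 above it, so the AT-rich members, among them ATM, ATR, BRCA1, BLM, NBN and RAD50, had the larger standard errors. XRCC3 lies at the other end, with 62.8% GC, and CHEK2 at 45.1%.

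**Figure D3:**
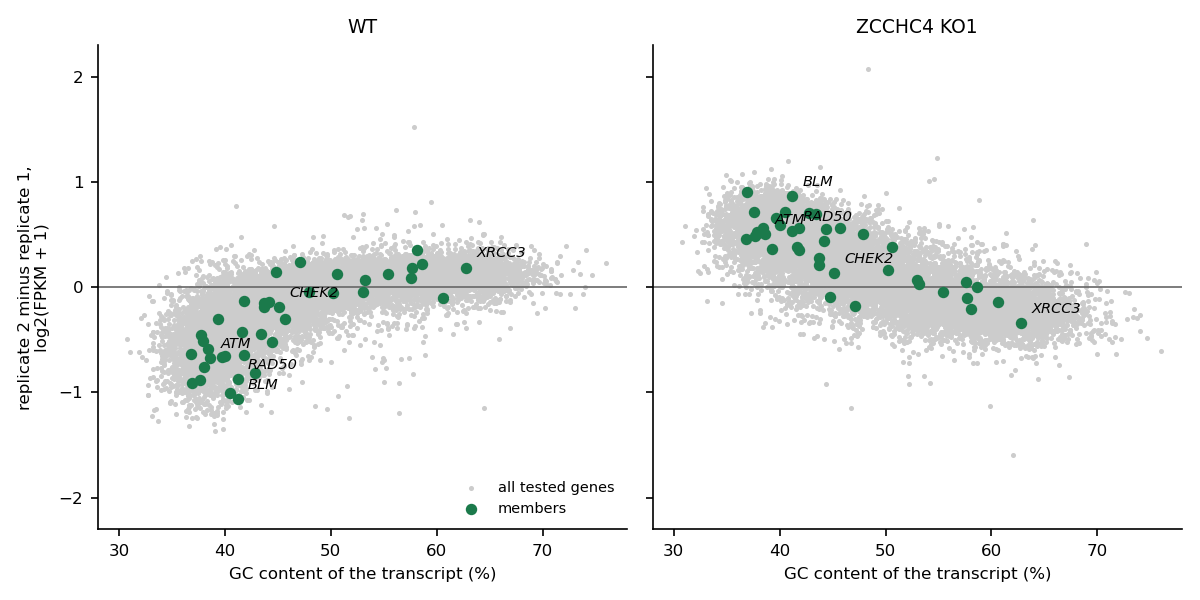
Replicate 2 minus replicate 1 on log2(FPKM + 1) against the GC content of the main transcript, in WT (left) and ZCCHC4 KO1 (right); green points are the 39 tested members and grey points all tested genes with a GC value. AT-rich members such as BLM lie below 0 in WT and above 0 in ZCCHC4 KO1, and the slope has the opposite sign in the 2 panels.

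With that trend removed from each library, 2 members passed an adjusted p of 0.05 as higher, XRCC3 and RAD50, and 1 as lower, CHEK2, where 11.9% and 13.5% of all tested genes did. The fit took the removed trend as known, with no allowance for its estimation. XRCC3 then had a log2 fold change of 0.78 (adjusted p = 0.00371), RAD50 of 0.73 (adjusted p = 0.0419) and CHEK2 of -0.60 (adjusted p = 0.0126). The log2 level of RAD50 after removal was 1.70 and 1.12 in WT against 2.08 and 2.20 in ZCCHC4 KO1, so its groups no longer overlapped. ATM moved to a log2 fold change of 0.46 (adjusted p = 0.0583), ATR to 0.42 (adjusted p = 0.0942), and CHEK1 to -0.06 (adjusted p = 0.724). The median over the members was 0.05, beside 0.05 over all tested genes. Adjusted p ranges are given, as for XRCC3 and CHEK2, over the settings that keep all 4 libraries. ATM, ATR and RAD50 do not reach the minimum FPKM of 5 and have no value there. The adjusted p of RAD50 spanned 0.0351 to 0.685, that of ATM 0.0583 to 0.917, that of ATR 0.0942 to 0.945 and that of CHEK1 0.55 to 0.945. With the left-out libraries included, the log2 fold change ran from 0.111 to 0.984 for RAD50 and from -0.461 to -0.031 for CHEK1.

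**Figure D4:**
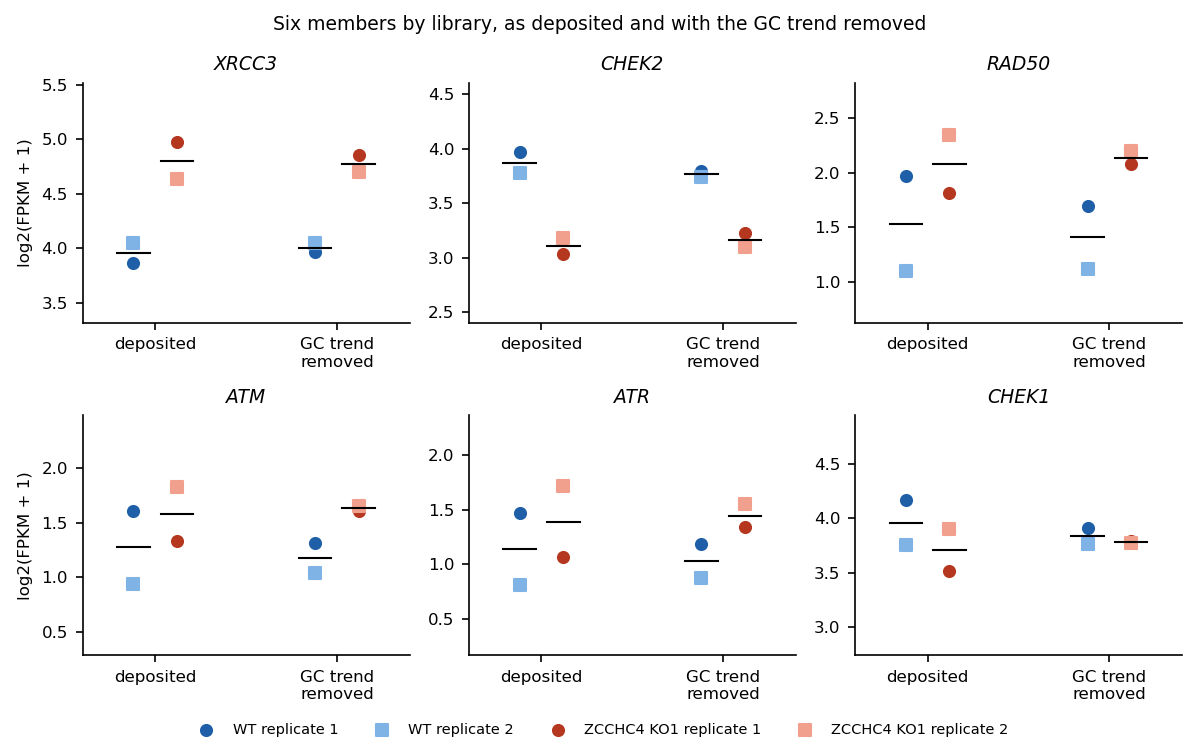
Log2(FPKM + 1) of 6 members in each library, as deposited and after removal of the library's trend on GC content; points are libraries, black lines are group means, and every panel spans the same height on the log2 scale. The replicates of ATM, ATR and CHEK1 move together after removal, and XRCC3 and CHEK2 keep their groups apart in both forms.

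Other genes of these pathways, none of them a member, were read from lists of known function. Of 40 other Fanconi and recombination genes, all tested, none passed an adjusted p of 0.05 as higher and 2 passed it as lower, and the median of the log2 fold changes was -0.04. After removal of the trend on GC content 4 passed as higher and 4 as lower, and the median was 0.07. Of all tested genes 11.9% passed as higher and 13.5% as lower after that removal, and 1.50% and 4.48% before it. RMI2, a subunit of the complex in which BLM acts, fell from 6.5 and 6.21 in WT to 2.34 and 2.25 in ZCCHC4 KO1, with a log2 fold change of -1.16 (SE 0.19) and an adjusted p of 0.0271. FBH1, a helicase that takes the recombinase off DNA, fell from 15.09 and 17.41 to 7.79 and 7.45. Its log2 fold change was -1.0 (SE 0.17), with an adjusted p of 0.0344. The 20 nearest tested genes of FBH1 had a median log2 fold change of -0.395 (17 below 0). Those of RMI2 had a median of -0.024 (12 below 0). Whether these stretches bear on the 2 calls was not tested. Neither call held without WT replicate 1 (adjusted p = 0.158 and 0.156) or without WT replicate 2 (adjusted p = 0.0854 and 0.326), nor with the replicate block (adjusted p = 0.0851 and 0.113).

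Among 25 S phase and proliferation genes, 3 passed as lower and none as higher, 11 were lower and none higher at an unadjusted p under 0.05, and the median log2 fold change was -0.38. After removal of the trend on GC content 11 passed as lower and none as higher. Of all tested genes 13.5% passed as lower and 11.9% as higher after that removal. Before it, these shares were 13.9% and 8.96% at the unadjusted p, and 4.48% and 1.50% at the adjusted p. MCM6 and MCM4, subunits of the replicative helicase, fell, MCM6 from 42.49 and 39.32 to 13.74 and 19.60 (log2 fold change -1.26, SE 0.20, adjusted p = 0.0263) and MCM4 from 117.14 and 113.67 to 59.79 and 72.53 (log2 fold change -0.80, SE 0.15, adjusted p = 0.0378). RRM2, the regulated subunit of ribonucleotide reductase, fell from 109.38 and 105.07 to 49.21 and 61.11 (log2 fold change -0.95, SE 0.15, adjusted p = 0.0264). The 20 nearest tested genes of MCM4 had a median log2 fold change of -0.483 (19 below 0), and those of MCM6 of -0.470 (16 below 0). For RRM2 it was -0.145 (12 below 0). Whether these stretches bear on the 3 calls was not tested. Without WT replicate 1 the adjusted p of RRM2 was 0.0623 and that of MCM4 0.176, and that of MCM4 was 0.123 without WT replicate 2, 0.0643 with the replicate block, 0.0519 after median-ratio scaling and 0.0653 without a trend in eBayes. The median of the members, -0.02, lay nearer to that of all genes than to that of this list, and the part that their levels have in the members' values was not tested.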

How the data were processed

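Total RNA of 2 WT and 2 ZCCHC4 KO1 libraries of cells labelled HepG2 was sequenced. Per the study's supplement, reads were aligned to GRCh38 with Bowtie2 and expression was estimated with RSEM on BGISEQ-500 data, whereas the labels name an Illumina HiSeq instrument; versions and strand settings are not given in the sources used here. The authors deposited FPKM values to 2 decimals, without read totals, so no depth and no counting error can be stated. The columns summed to between 512417.0 and 565198.6, and 10191 to 10693 genes reached an FPKM of 1 in a library. A RefSeq symbol was found for 16384 of 16658 Entrez identifiers.

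Values were compared as log2(FPKM + 1), which understates the change of low genes, with limma 3.58.1 in R 4.3.3 (lmFit, eBayes with trend, two-sided, Benjamini-Hochberg over all tested genes), after a filter of FPKM of at least 1 in at least 2 libraries. The script was tested on simulated data. GC content came from the GENCODE 44 main transcript, with a value for 98.3% of tested genes, and its trend was removed per library with a natural spline of 4 degrees of freedom. Members with an unadjusted p under 0.05 and ATM, ATR, CHEK1 and CHEK2 were given with full statistics, the remaining members with FPKM values; in the other lists, up to 3 genes with an adjusted p under 0.05, and H2AX. The members, lists and alternatives were chosen with earlier results of these data known. Alternatives were a pseudocount of 0.1, no filter, a minimum FPKM of 5, median-ratio scaling, eBayes with no trend, quantile normalization, a block for the replicate number, GC trend removal, and leaving out each library.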

Additional observations from a re-analysis of the deposited data

How the results depend on the processing

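Precision is limited by 2 libraries a group, from 1 knockout line and of a depth the FPKM values do not give. As reported, 0 members were higher and 0 lower at an adjusted p under 0.05 (limma), and 1 and 1 at an unadjusted p under 0.05. A minimum FPKM of 5, median-ratio scaling and quantile normalization each gave 1 higher member, XRCC3. GC trend removal gave 2 higher and 1 lower, and at an unadjusted p 4 and 3; with the replicate block added these were 2 and 1, and 3 higher. At an unadjusted p, median-ratio scaling and quantile normalization each gave 2 higher members, XRCC3 and RAD50. No filter also gave 2, XRCC3 and BRCA2, the latter under an FPKM of 1 in every library. eBayes without a trend gave 2 lower. Leaving out each library gave 0 to 1 higher, 0 to 1 lower, and at an unadjusted p 1 to 2 higher and 0 to 4 lower; the calls came without ZCCHC4 KO1 replicate 2, and CHEK2 missed an unadjusted p of 0.05 without WT replicate 1. No setting gave a member an adjusted p under 0.001 with a fold change of at least 2. The members' median stayed between -0.21 and 0.09.

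The labels number the replicates of both groups, but say nothing of a shared culture or day. The within-group differences (replicate 2 minus replicate 1) of the groups correlated at -0.79 over all tested genes and at -0.88 over the members. What libraries of the same number share beyond that number is not stated and was not tested. With the replicate number as a block, 0 members were called in either direction, and 107 higher and 355 lower of all tested genes. The crossed pairing, added after the values were seen, called 6 members higher and 7 lower, 7 and 11 at an unadjusted p, and 2309 and 2986 of all tested genes. It pairs replicate 1 of each group with replicate 2 of the other, libraries already seen to differ in the same way. Its p-values follow from that choice, so no member is taken as changed from it.

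Of the 39 tested members, 5 turned sign with median-ratio scaling, 7 with quantile normalization, 8 with GC trend removal and 10 to 11 when 1 library was left out. Of the genes given with full statistics, 3 turned sign. Over the fits that leave out 1 library, ATM ran from -0.034 to 0.639 and was negative without WT replicate 2. ATR ran from -0.083 to 0.580 and was negative when either replicate 2 was left out, of WT or of ZCCHC4 KO1. H2AX ran from -0.165 to 0.089, was positive in those same 2 fits, and was 0.039 with median-ratio scaling. The cause was not tested. Without a filter, RMI2, FBH1, MCM6, RRM2, MCM4 and ZCCHC4 missed the threshold, with adjusted p from 0.0641 to 0.115.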

Other observations

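Genes of the competing repair route, end joining, were read from a list of 13, all tested, of which none passed an adjusted p of 0.05 in either direction and 1 was higher and 1 lower at an unadjusted p under 0.05. Their median log2 fold change was 0.12. After removal of the trend on GC content 2 passed as higher and none as lower, with a median of 0.20. Of 25 checkpoint and break signalling partners, 24 were tested, none passed an adjusted p of 0.05, 2 were higher and 2 lower at an unadjusted p under 0.05, and the median was 0.06. After removal of the trend 3 passed as higher and 1 as lower, with a median of 0.14. Of all tested genes 8.96% were higher and 13.9% lower at an unadjusted p under 0.05. With the trend removed 11.9% of them passed an adjusted p of 0.05 as higher and 13.5% as lower.

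The members were also set beside their neighbours, the 20 nearest tested genes on the same chromosome. The median log2 fold change of the neighbours lay below -0.2 for 5 of the 39 tested members. The same count was not made over all tested genes, so whether 5 is many cannot be told. The lowest such median of the members, -0.68, was that of FANCB on the X chromosome. All 20 neighbours of FANCB, spread over 5.19 Mb, had a log2 fold change below 0. RNF8 had neighbours with a median of -0.40 (17 of 20 below 0), BLM of -0.29 (14 of 20), ATM of -0.25 (14 of 20) and CHEK2 of -0.20 (14 of 20). FANCA lay among genes with a median of 0.25 (16 of 20 above 0), and XRCC3 among genes with a median of 0.09 (12 of 20 above 0). These medians are given as values, and their relation to the members was not tested.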
